A study of Mus musculus with 18 samples.

Results

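Delta cells are the somatostatin-secreting cells of the pancreatic islet, and the data described here compare delta cells from islets exposed to interferon gamma (IFNγ) with delta cells from untreated islets. The members are the 6 samples that the labels name as delta cells, 3 from control islets and 3 from islets kept with IFNγ, out of 18 samples in the series. The question is which genes rose and which fell in delta cells under the cytokine. Islets came from C57BL/6 mice, which the methods give as male C57BL/6JRj animals of 12 weeks, and no transgene or deletion is named for any group. Treated islets were kept for 20 h with 5 ng/mL IFNγ, and control islets were cultured without it. The islets were treated whole and dispersed afterwards, so delta cells met the cytokine beside alpha cells, beta cells and the other cells of the islet. They were then sorted by flow cytometry as Epcam-positive, CD24-high cells that lacked CD45, TER119 and CD31. The sources used here do not say how many mice gave each sample. The other 12 samples are alpha and beta cells treated in the same way, and they enter below only where the response of delta cells is set beside theirs.

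IFNγ is a cytokine that activated lymphocytes secrete, among them T cells and natural killer cells. It is found in the islet during the autoimmune attack of type 1 diabetes. It binds a receptor made of the Ifngr1 and Ifngr2 chains, which activates the kinases Jak1 and Jak2. The signal is carried to the nucleus, where it acts through short DNA elements called GAS (gamma-activated sites). Among the genes it switches on is Irf1, a transcription factor that acts on a second kind of element, the ISRE (interferon-stimulated response element). The genes reached in this way serve antigen presentation, defence against microbes inside the cell and the recruitment and restraint of immune cells.

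The 6 delta cell samples held between 6128878 and 11531742 counts each, and 17338 genes passed the low-count filter. Levels are given as CPM, the count of a gene per 1000000 counts after scaling of the library sizes, in the order of samples 1 to 3 of a group. Somatostatin (Sst) was at 35920, 34770 and 14710 CPM in the controls and 9563, 14000 and 14820 CPM with IFNγ. Hhex, the transcription factor that sustains delta cells, was at 192, 199.8 and 226 CPM in the controls and 339, 258 and 257 CPM with IFNγ, and the ghrelin receptor Ghsr was at 104, 119.6 and 135 CPM in the controls and 138, 115 and 107 CPM with IFNγ. Cd24a, which encodes the antigen of the sort gate, lay between 615 and 1280 CPM. In the alpha and beta cell samples Cd24a did not exceed 7.55 CPM, Hhex 0.712 CPM and Ghsr 0.862 CPM, so the labels and these markers went together. Other endocrine hormones were present as well. Pyy lay between 1440 and 5740 CPM, Ppy between 785 and 2480 CPM, and glucagon (Gcg) reached 2260 CPM in control sample 3 and 649 CPM in IFNγ sample 3. Protein-coding genes took 80% to 80.8% of counts in the controls and 73.6% to 79.5% with IFNγ (exact permutation test, two-sided p = 0.1, the smallest that 3 against 3 samples allow). In a principal component analysis of the 6 samples, the first component (37.2% of the variance) separated the treatments, and the second (26.8%) set control sample 3 and IFNγ sample 3 apart from the rest. The dates carried by the file names differ for all 6 samples, so date and treatment cannot be told apart within delta cells. In bulk samples such as these, fewer cells of a type and less RNA per cell cannot be told apart either.

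IFNγ changed few genes in number, and mostly upward. By the quasi-likelihood test of edgeR, at a Benjamini-Hochberg adjusted p under 0.05, 209 of 17338 genes were higher with IFNγ (1.21%) and 32 were lower (0.185%). At an adjusted p under 0.01 the counts were 164 and 7. All 209 higher genes had 3 IFNγ samples above all 3 controls, where 7.71% of tested genes did, and all 32 lower genes had the opposite order, where 7.8% of tested genes did. The rises were large. Of the 209, 202 rose at least 2-fold, 148 at least 4-fold and 71 at least 16-fold in the fit, with a median log2 fold change of 2.78, also with genes that had no count in the controls set at their lower bound. The falls were smaller, with a median of -1.48, and 9 of the 32 were at least 4-fold. Over all tested genes the median was -0.05. Together the 209 genes took 0.471%, 0.463% and 0.433% of the tested counts in the controls and 2.84%, 4.19% and 2.98% with IFNγ. Of these genes, 175 were annotated as protein coding and 11 as pseudogenes, and 80 shared exonic sequence with another gene on either strand, where the division of reads is uncertain. Leaving out 1 sample at a time gave between 164 and 213 higher genes, and 155 of the 209 passed in each of these 6 fits. Without control 3 and IFNγ 3, the pair set apart by the second component, 196 genes were higher and 62 lower. With date as a term in the fit of all cell types, 83 were higher and 26 lower. For the genes named by rule below, calls lost when 1 sample was left out are given with their adjusted p. Of the 93 rises named by rule, 86 passed in every fit without 1 sample. Other losses of these rises are named beside the gene, apart from 25 rises lost only with the date term. For other genes, picked out after their values were seen, such as Rfx5, losses are not given, so their stability is not shown. Other losses of falls are given in part, where their stability is described. Irf2, Tapbp, Tapbpl and Parp11 were lost with the date term and on both TPM scales.

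**Figure D1:**
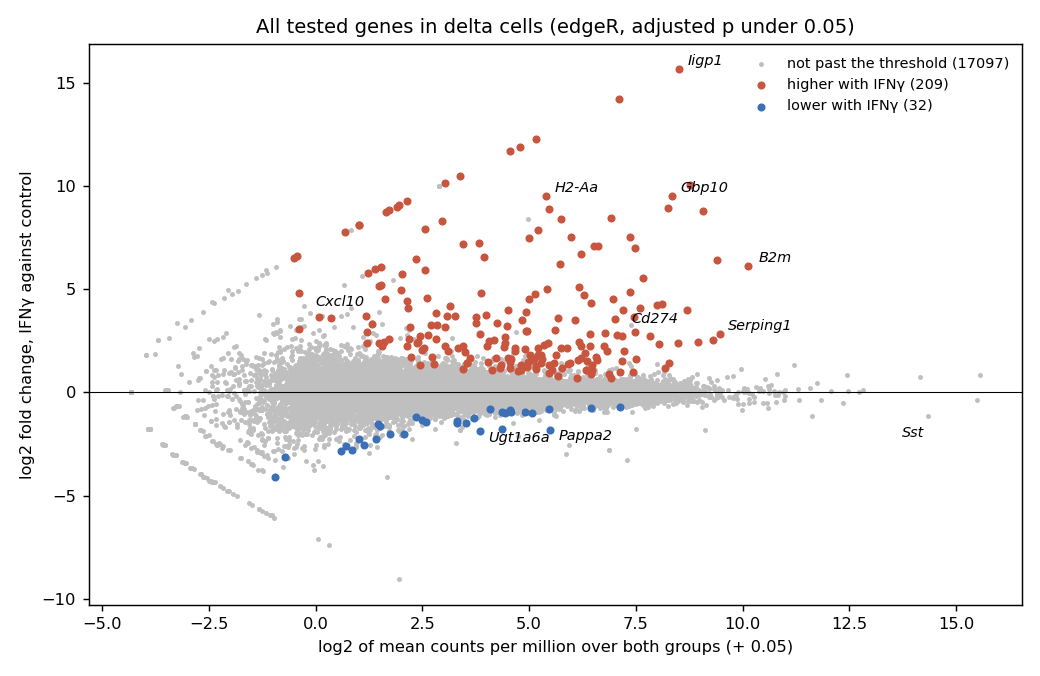
Each point is 1 of 17338 tested genes in delta cells, with the log2 of its mean CPM over both groups on the horizontal axis and the log2 fold change of IFNγ against control on the vertical axis. The 209 genes that were higher reach far above the cloud of genes that did not pass, the 32 that were lower lie close under it, and Sst at the far right did not pass; points on the upper diagonal lines had no count in the controls, so their plotted heights depend on the prior count.

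Neither chain of the receptor passed. Ifngr1, the ligand-binding chain, was at 12.6, 12 and 15.7 CPM in the controls and 11.7, 9.17 and 14.9 CPM with IFNγ, and Ifngr2 was at 6.97, 6.16 and 7.89 CPM in the controls and 8.49, 8.79 and 5.74 CPM with IFNγ. Their log2 fold changes were -0.17 (SE 0.22, adjusted p = 0.818) and 0.12 (SE 0.36, adjusted p = 0.928), and the samples of both groups overlapped. The kinase Jak1 (-0.11, SE 0.17, adjusted p = 0.852) and the transcription factor Stat3 (0.01, SE 0.16, adjusted p = 0.996) did not pass either. Of the list 3 genes did pass. Stat2, a transcription factor of interferon complexes (chromosome 10, 128270559 to 128292849 on GRCm38), was at 32.2, 22.7 and 23.6 CPM in the controls and 174, 240.4 and 164 CPM with IFNγ, with no overlap, and rose by 2.88 (SE 0.22, adjusted p = 6.51e-08). Jak2 rose by 0.89 (SE 0.21, adjusted p = 0.0425). Its call was the least firm of the list, since it was lost without control 1 (adjusted p = 0.222), control 2 (0.269), IFNγ 1 (0.18) or IFNγ 3 (0.0878), and also in a fit of the delta cell samples alone, with the date term and on both TPM scales. In all, 3 of the 17 tested receptors, JAKs and STATs rose, none fell, and the median of the list was 0.01.

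Genes that limit the same pathway moved only in part. Socs1, an inhibitor that binds JAK kinases, was at 0.859, 0.432 and 0.104 CPM in the controls and 12.4, 16.2 and 6.31 CPM with IFNγ. It rose by 4.57 (SE 0.62, adjusted p = 0.000124), and the groups did not overlap. Usp18, a protease that removes ISG15 and dampens interferon receptors, was at 5.82, 7.89 and 7.06 CPM in the controls and 22.8, 52.5 and 32.8 CPM with IFNγ and rose by 2.38 (SE 0.34, adjusted p = 0.000242). Socs3 (0.84, SE 0.36, adjusted p = 0.372) and the phosphatase Ptpn2 (0.55, SE 0.28, adjusted p = 0.459) did not pass. Of 17 tested brakes on JAK-STAT signalling, 2 rose and none fell, with a median of 0.10.

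**Figure D2:**
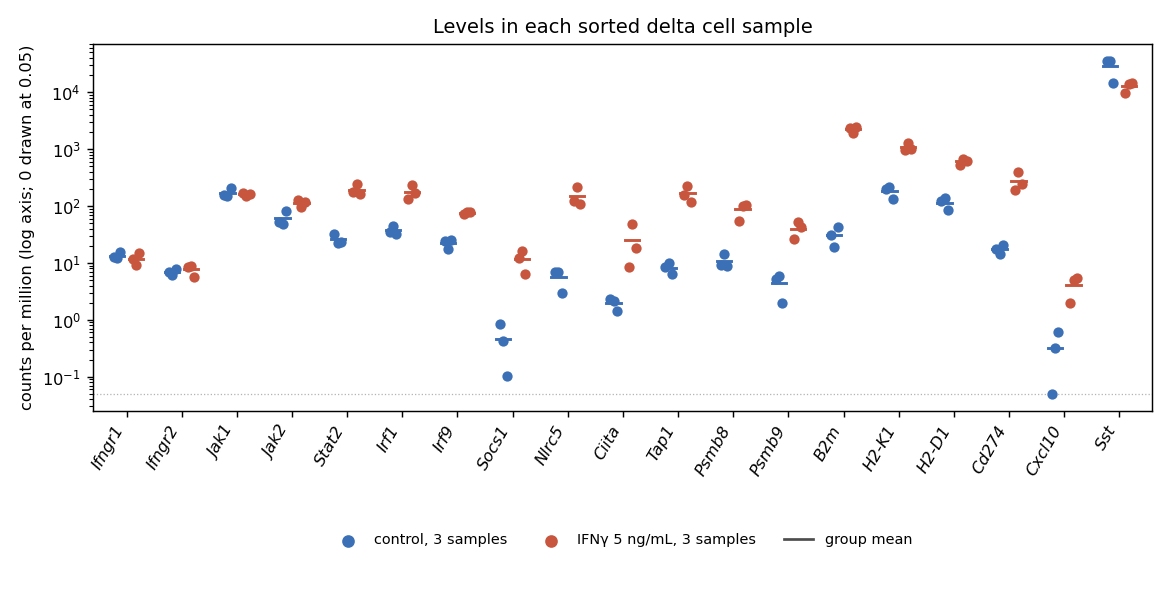
CPM (log axis) of 19 genes in each of the 3 control (blue) and 3 IFNγ (red) delta cell samples, with a bar at the mean of each group and a value of 0 drawn at 0.05. The points of Ifngr1, Ifngr2, Jak1 and Sst overlap between treatments, while from Jak2 and Stat2 to Cxcl10 the treated points stand above all controls.

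Many transcription factors of the interferon response rose. Of 13 tested interferon regulatory factors and MHC transactivators 8 passed, all upward, with a list median of 1.80. Irf1 (chromosome 11, 53770014 to 53778374 on GRCm38), an early target of the textbook pathway, was at 35.1, 43.9 and 32.9 CPM in the controls and 132, 236 and 172 CPM with IFNγ. The groups did not overlap, and the log2 fold change was 2.27 (SE 0.22, adjusted p = 1.42e-06). Irf9, which joins Stat2 in one complex, was at 23.9, 17.4 and 24.9 CPM in the controls and 71.1, 79.6 and 79.5 CPM with IFNγ and rose by 1.80 (SE 0.18, adjusted p = 2.78e-06). Irf8, better known from myeloid cells, had 4 counts in the 3 controls together and 149 with IFNγ, and rose by 5.21 (SE 0.82, adjusted p = 0.000757). Irf7 (2.97, SE 0.37, adjusted p = 5.15e-05), Irf2 (1.09, SE 0.17, adjusted p = 0.000544) and Batf2, which had 2 counts in the controls and 132 with IFNγ, also rose.

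The regulators of the MHC gene families were among these. Nlrc5, the transactivator of MHC class I genes (chromosome 8, 94434356 to 94527272 on GRCm38), was at 7.06, 7.03 and 2.91 CPM in the controls and 124, 216 and 108 CPM with IFNγ, which is a rise of 4.71 (SE 0.40, adjusted p = 2.66e-07). Ciita, the transactivator of class II genes, was at 2.29, 2.16 and 1.45 CPM in the controls and 8.63, 48.4 and 18.4 CPM with IFNγ. Its treated samples spread widely among themselves but all lay above the controls, and the rise was 3.66 (SE 0.50, adjusted p = 0.000151). Rfx5, a DNA-binding partner of both regulators that was picked out after its values were seen, rose by less, 0.80 (SE 0.19, adjusted p = 0.0462). Ciita did not pass with the date term or on log2(TPM + 1), with an adjusted p of up to 0.19.

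Since the pathway is defined by its DNA elements, promoter windows are shown for 6 of the genes that rose, chosen after their values were seen, and for Sst. They come from RefSeq on GRCm38.p6 and run from 250 bases before to 50 bases after a transcription start, and capitals mark matches to GAS, written TTCNNNGAA, or to an ISRE-like pair, written GAAANNGAAA, searched on both strands. Of the 32851 windows in the table, 8.3% held the first and 3.44% the second.
Irf1 (chr11:53769764-53770063, plus strand): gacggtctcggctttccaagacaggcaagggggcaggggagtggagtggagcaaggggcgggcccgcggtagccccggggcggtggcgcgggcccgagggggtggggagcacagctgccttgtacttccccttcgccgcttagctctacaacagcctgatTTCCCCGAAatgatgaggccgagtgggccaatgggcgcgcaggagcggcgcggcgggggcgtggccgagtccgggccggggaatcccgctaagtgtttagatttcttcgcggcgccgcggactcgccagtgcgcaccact
Psmb8 (chr17:34197945-34198244, plus strand): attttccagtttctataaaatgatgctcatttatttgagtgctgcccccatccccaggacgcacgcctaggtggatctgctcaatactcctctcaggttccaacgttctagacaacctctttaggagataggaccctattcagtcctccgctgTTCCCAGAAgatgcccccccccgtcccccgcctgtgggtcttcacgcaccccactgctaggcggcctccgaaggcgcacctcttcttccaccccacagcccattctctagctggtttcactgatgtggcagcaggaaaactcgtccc
B2m (chr2:122147437-122147736, plus strand): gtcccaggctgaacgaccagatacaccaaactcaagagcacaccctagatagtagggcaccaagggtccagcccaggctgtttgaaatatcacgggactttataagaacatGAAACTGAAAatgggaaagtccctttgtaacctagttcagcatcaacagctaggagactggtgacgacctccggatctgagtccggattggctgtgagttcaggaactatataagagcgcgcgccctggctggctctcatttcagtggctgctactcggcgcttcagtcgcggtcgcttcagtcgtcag
Gbp2 (chr3:142620413-142620712, plus strand): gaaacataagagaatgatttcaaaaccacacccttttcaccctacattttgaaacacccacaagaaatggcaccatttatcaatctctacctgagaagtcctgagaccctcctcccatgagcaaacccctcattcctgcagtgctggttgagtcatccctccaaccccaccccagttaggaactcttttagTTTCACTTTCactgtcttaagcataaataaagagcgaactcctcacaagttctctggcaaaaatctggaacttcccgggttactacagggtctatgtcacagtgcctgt
Irgm1 (chr11:48871371-48871670, minus strand): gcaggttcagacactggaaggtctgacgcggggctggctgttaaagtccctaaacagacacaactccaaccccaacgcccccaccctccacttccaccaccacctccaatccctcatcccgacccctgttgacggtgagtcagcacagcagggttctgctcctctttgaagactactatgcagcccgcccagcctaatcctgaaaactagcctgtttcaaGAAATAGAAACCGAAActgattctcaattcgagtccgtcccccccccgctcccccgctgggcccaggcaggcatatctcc
Cxcl10 (chr5:92348840-92349139, minus strand): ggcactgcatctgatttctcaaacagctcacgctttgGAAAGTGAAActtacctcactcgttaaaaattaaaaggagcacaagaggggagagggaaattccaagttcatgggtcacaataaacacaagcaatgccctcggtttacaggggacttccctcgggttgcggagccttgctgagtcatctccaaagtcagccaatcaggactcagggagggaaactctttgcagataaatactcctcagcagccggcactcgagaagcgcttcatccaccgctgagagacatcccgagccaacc
Sst (chr16:23890795-23891094, minus strand): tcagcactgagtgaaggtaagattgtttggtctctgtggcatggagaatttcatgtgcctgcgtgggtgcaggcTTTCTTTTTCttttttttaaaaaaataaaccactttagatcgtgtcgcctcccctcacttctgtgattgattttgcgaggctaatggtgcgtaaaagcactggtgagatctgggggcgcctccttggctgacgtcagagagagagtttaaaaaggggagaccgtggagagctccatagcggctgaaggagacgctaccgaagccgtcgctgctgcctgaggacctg
The match in Irf1 begins 90 bases and that in Psmb8 97 bases before the start, and both are GAS. The ISRE-like match begins 139 bases before the start in B2m, 59 in Gbp2 and 213 in Cxcl10, and Irgm1 holds 2 overlapping ones from 30 bases before it. Sst, which did not rise, has a match 176 bases before its start. Irf1 has another window in the table without a match. A match of letters is not a binding site. The 6 genes are examples, so how many of them hold a match is no measure of the 209 higher genes. Only 141 of the 209 higher genes (67.5%) had a window, under the 80% needed, so a comparison of their share with the background is void and was not made.

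By list median, the largest rises were those of the interferon-inducible GTPases, enzymes that attack the membranes around intracellular microbes. Of 28 tested genes of this family 25 rose and none fell, with a median log2 fold change of 7.26, or 7.15 with genes that had no count in the controls at their bound. Summed over the list, the level went from between 109 and 167 CPM in the controls to between 7000 and 10200 CPM with IFNγ. Iigp1 (chromosome 18, 60376027 to 60392634 on GRCm38) had no count in any control and was at 451, 845 and 893 CPM with IFNγ, which is at least 7463-fold higher when 3 counts over the control group are taken as the floor. The same floor gave lower bounds of 687-fold for F830016B08Rik, 558-fold for Gm4951, 476-fold for Gm12250, 206-fold for 9930111J21Rik1 and 161-fold for Gm4841, which all belong to the list of GTPases and had no count in the controls. BC023105, a neighbour of Iigp1, was at least 2749-fold higher.

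Members that had counts in the controls gave measured folds. Tgtp1 was at 0.954, 0.973 and 0.519 CPM in the controls and 645, 1030 and 937 CPM with IFNγ. Its treated samples stood far above the controls, with a log2 fold change of 10.03 (SE 0.48, adjusted p = 2.26e-10). Gbp10, a guanylate-binding protein, was at 0.859, 0.865 and 0.934 CPM in the controls and 430.4, 834 and 689 CPM with IFNγ (9.50, SE 0.52, adjusted p = 9.05e-10). Gbp2 was at 2.67, 2.38 and 3.32 CPM in the controls and 209, 416 and 433 CPM with IFNγ, with the lowest treated sample far above the highest control (6.97, SE 0.43, adjusted p = 2.65e-09). The immunity-related GTPases Irgm1 (4.26, SE 0.25, adjusted p = 1.6e-09), Irgm2 (4.85, SE 0.26, adjusted p = 8.55e-10) and Igtp (5.55, SE 0.34, adjusted p = 2.4e-09) started from higher levels, between 7.63 and 32.7 CPM, and rose by less on the log2 scale. Gbp5, which helps to assemble inflammasomes, rose by 3.72 (SE 0.49, adjusted p = 9.16e-05). Irgm2 and Igtp share exonic sequence, as do Tgtp1 and Gm12185, and Tgtp1 and Tgtp2 are near-identical, so their single values are uncertain.

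These genes sit in clusters. Grouping the 209 higher genes wherever neighbours lie less than 500000 bases apart gave 11 groups of at least 4 genes. Each group runs from its first to its last higher gene, so the shares below are high by construction and test nothing. Over all tested genes 1.21% rose. Some members share exonic sequence, such as Tgtp1 with Gm12185, Olfr56 with Ifi47 and Gbp10 with Gm43302, and may not be separate rises. On chromosome 11, between 48861968 and 49135387 on GRCm38, 10 of 11 tested genes rose, among them Irgm1, Tgtp1 and Ifi47. On chromosome 5, between 105014150 and 105346472, 7 of 7 rose, 6 of them Gbp genes, and on chromosome 18, between 60212080 and 60812652, 7 of 12 rose, Iigp1 and Cd74 among them. The widest group was the MHC region of chromosome 17, from 33915899 to 35474563, where 20 of 84 tested genes rose. Smaller groups were the Oas genes on chromosome 5 (6 of 11), the group around Trim5 on chromosome 7 (5 of 5), the Ifit genes (4 of 6) and the stretch from Jak2 to Cd274 (4 of 4) on chromosome 19.

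Genes of MHC class I presentation rose, chains and peptide supply alike. B2m, the light chain of every class I molecule (chromosome 2, 122147686 to 122153083 on GRCm38), was at 31.3, 19.2 and 43.5 CPM in the controls and 2326, 1891 and 2426 CPM with IFNγ. The treated samples were alike and stood far above each control, and the log2 fold change was 6.14 (SE 0.44, adjusted p = 2.11e-08). Scaled for length, B2m reached a mean of 1470 TPM, RSEM's length-scaled unit, with IFNγ, against 10950 TPM for Sst in the same samples. The heavy chain H2-K1 was at 202, 219.9 and 135 CPM in the controls and 970.3, 1259 and 1006 CPM with IFNγ and rose by 2.54 (SE 0.25, adjusted p = 1.51e-06), and H2-D1 was at 121, 136 and 85.5 CPM in the controls and 536, 678 and 610.1 CPM with IFNγ and rose by 2.41 (SE 0.28, adjusted p = 1.85e-05). Both were already well expressed before treatment, unlike the non-classical H2-Q6 and H2-Q7, which were at 2.39 CPM or less in each control and between 124 and 242 CPM with IFNγ. H2-T23, the ligand of inhibitory receptors on natural killer cells, rose by 3.63 (SE 0.33, adjusted p = 6.49e-07), and H2-Q4 by 3.57 (SE 0.24, adjusted p = 1.03e-08). In all, 10 of 15 tested class I chains rose, none fell, and the median was 2.41. These chains are near-identical in places, and reads may be divided between them with error.

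On the side of peptide supply, 4 genes passed. Tap1, a subunit of the transporter that brings peptides to class I molecules, was at 8.4, 9.95 and 6.33 CPM in the controls and 157, 228 and 117 CPM with IFNγ and rose by 4.34 (SE 0.30, adjusted p = 1.24e-08). Its partner Tap2 rose by 1.82 (SE 0.38, adjusted p = 0.0133), a call that was lost without control 1 (adjusted p = 0.0933), control 3 (0.0798) or IFNγ 2 (0.0805), without both samples numbered 3, with the date term and on both TPM scales. The tapasin gene Tapbp was at 176, 196 and 124 CPM in the controls and 436, 514 and 398 CPM with IFNγ and rose by 1.44 (SE 0.25, adjusted p = 0.00245), while the chaperone Calr was at 0.34 (SE 0.28, adjusted p = 0.678) and did not pass. Tapbpl, a tapasin relative, also rose (1.31, SE 0.23, adjusted p = 0.00257), and of 8 tested loading genes none fell, with a median of 1.10.

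The proteasome showed a split by subunit. The 3 catalytic subunits that interferon exchanges into the core rose: Psmb8 was at 9.35, 14.3 and 8.72 CPM in the controls and 53.9, 102 and 105 CPM with IFNγ (3.02, SE 0.30, adjusted p = 1.65e-06), Psmb9 rose by 3.21 (SE 0.38, adjusted p = 2.16e-05) and Psmb10 by 2.15 (SE 0.35, adjusted p = 0.00106). Psmb9 and Tap1 start from one shared promoter and overlap on opposite strands. The activator subunit Psme1 rose by 1.58 (SE 0.28, adjusted p = 0.00225), and Psme2 (1.24, SE 0.33, adjusted p = 0.0822) had no overlap between groups but did not pass. On both TPM scales Psmb10 (adjusted p up to 0.0657) and Psme1 were not called, and Psme1 was also lost with the date term (up to 0.147). The subunits replaced in the core did not pass, namely Psmb5 (-0.21, SE 0.26, adjusted p = 0.799), Psmb6 (-0.37, SE 0.25, adjusted p = 0.595) and Psmb7 (0.12, SE 0.20, adjusted p = 0.852). None of the 15 tested subunits of the constitutive core passed, with a median of -0.08, against 4 of 5 immunoproteasome genes with a median of 2.15. By length-scaled level, Psmb8 went from a mean of 5.14 to 33.5 TPM, and Psmb5 from 9.05 to 6.81 TPM.

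MHC class II presentation is normally a property of professional antigen-presenting cells, and 5 of its 9 tested genes rose, with a list median of 6.56. Cd74, the invariant chain, was at 0.859, 0.649 and 0.519 CPM in the controls and 184, 305 and 229 CPM with IFNγ and rose by 8.43 (SE 0.52, adjusted p = 2.56e-09). H2-Aa had 3 counts in the controls and 2304 with IFNγ, a ratio of 828 (95% counting interval 283 to 4018). H2-Ab1 (7.25, SE 0.70, adjusted p = 3.81e-06) and H2-Eb1 (6.56, SE 0.63, adjusted p = 1.38e-06) behaved alike, each with under 1 CPM in every control. H2-DMb1, which helps to load peptides, had 1 count in the controls and 425 with IFNγ. None of the 9 fell. Ctss, the protease that trims the invariant chain in immune cells, had 3 counts in each group and was not tested. The summed level of 14 immune cell markers was 4.33 to 5.61 CPM in the controls and 4.34 to 6.75 CPM with IFNγ, and neither of the 2 tested ones passed.

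Some genes that restrain immune cells rose as well. Cd274, which encodes PD-L1, the ligand of an inhibitory receptor on T cells (chromosome 19, 29367455 to 29388095 on GRCm38), was at 17.5, 14.3 and 21 CPM in the controls and 195, 392 and 242 CPM with IFNγ. The treated samples lay between 195 and 392 CPM and the controls between 14.3 and 21 CPM, a rise of 3.98 (SE 0.30, adjusted p = 4.75e-08). An antisense transcript over the gene, AC119228.1, also rose, and reads of the pair may be mixed. Il18bp, a decoy that binds interleukin 18, was at 50.1, 39.9 and 32.4 CPM in the controls and 256, 336 and 353 CPM with IFNγ and rose by 2.95 (SE 0.23, adjusted p = 6.34e-08). Lgals9, a lectin ligand of T cell receptors, rose from 14 counts to 221 (4.10, SE 0.78, adjusted p = 0.0059), a call lost without control 1 (adjusted p = 0.0537) and with the date term. Serpina3f had 2 counts in the controls and 148 with IFNγ, and its call was lost under limma-voom, with the date term and on log2(TPM + 1) (adjusted p up to 0.637). Serpinb9, an inhibitor of granzyme B, had no overlap but did not pass (0.89, SE 0.25, adjusted p = 0.118). In this list 4 of 17 tested genes rose, with a median of 0.44.

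Chemokines were few. Cxcl10, which draws T cells through the receptor CXCR3, was at 0, 0.324 and 0.623 CPM in the controls and 1.95, 4.97 and 5.49 CPM with IFNγ. All treated samples were above the controls, but even then the gene stayed low, at a mean of 1.94 TPM, and the rise of 3.70 (SE 0.64, adjusted p = 0.0022) was lost under limma-voom, in a fit of the delta cell samples alone, with the date term and on log2(TPM + 1) (adjusted p up to 0.659). Its relative Cxcl9 had no count in the controls and 14, 0 and 12 counts with IFNγ, which was too little for the test, and Cxcl11 and Ccl2 had no count in any delta cell sample. Csf1, the growth factor of macrophages, was at 6.39, 4.65 and 3.94 CPM in the controls and 23.2, 35.9 and 25.6 CPM with IFNγ and rose by 2.49 (SE 0.27, adjusted p = 5.92e-06). Il15ra rose by 1.09 (SE 0.23, adjusted p = 0.0151), a call lost without control 2 (adjusted p = 0.0691), control 3 (0.0871) or IFNγ 2 (0.114), in the delta cell samples alone, with the date term and on both TPM scales. Its ligand Il15 had no count in the controls and 4, 4 and 10 with IFNγ. The adhesion genes Icam1 (2.79, SE 1.08, adjusted p = 0.318) and Vcam1 (2.16, SE 0.91, adjusted p = 0.372) had no overlap and did not pass, although Icam1 passed in a fit of the delta cell samples alone (2.83, adjusted p = 0.00334) and without the low-count filter (adjusted p = 1.62e-07). Of 12 tested chemokines, cytokines and adhesion genes 3 rose, with a median of 1.41.

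The broadest group by number was the antiviral one. Of 49 tested effectors and sensors 34 rose and none fell, with a median log2 fold change of 2.58. Ifit2 and Ifit3, which bind foreign RNA, were among the larger changes, Ifit3 at 2.29, 1.73 and 3.32 CPM in the controls and 36.2, 104 and 63.1 CPM with IFNγ (4.78, SE 0.39, adjusted p = 1.16e-07) and Ifit2 at 6.20 on the log2 scale. Zbp1, a sensor of Z-form nucleic acid, was at 1.15, 1.41 and 1.66 CPM in the controls and 116, 196 and 128 CPM with IFNγ (6.69, SE 0.35, adjusted p = 7.16e-10), with no overlap between groups. Oasl2 (5.10, SE 0.37, adjusted p = 2.76e-08), Rsad2 (2.84, SE 0.44, adjusted p = 0.000634), which encodes viperin, and Bst2 (3.37, SE 0.48, adjusted p = 0.000249), which encodes tetherin, rose as well. Ifih1, which encodes the RNA sensor MDA5, was at 31.5, 35 and 60.5 CPM in the controls and 125, 120.5 and 118 CPM with IFNγ (1.52, SE 0.22, adjusted p = 0.000359), and the kinase Eif2ak2 at 35.9, 37.1 and 77.8 CPM in the controls and 138, 125 and 122 CPM with IFNγ (1.35, SE 0.25, adjusted p = 0.00467). The paralogs Apol9a and Apol9b, which share sequence, had 1 and 0 counts in the controls and 307 and 168 with IFNγ. Ifitm3, a membrane protein that blocks viral entry, had no overlap but did not pass (3.40, SE 0.87, adjusted p = 0.0665).

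Enzymes that tag proteins rose together. All 4 tested genes of ISG15 conjugation passed: Isg15 itself with 2 counts in the controls and 120 with IFNγ, its activating enzyme Uba7 (2.24, SE 0.30, adjusted p = 0.000124), its conjugating enzyme Ube2l6 (2.16, SE 0.28, adjusted p = 6.63e-05) and the ligase Herc6 (2.75, SE 0.25, adjusted p = 4.61e-07). Isg15 remained low, with a mean of 4.22 TPM, beside 42.1 TPM for Uba7. All 6 interferon-induced PARPs passed as well, enzymes that attach ADP-ribose to proteins, or their partner in the case of Dtx3l. Parp14 was at 58.8, 52.9 and 66.5 CPM in the controls and 355, 483 and 359 CPM with IFNγ (2.75, SE 0.22, adjusted p = 7.24e-08), and the smallest rise was that of Parp11 (1.13, SE 0.19, adjusted p = 0.00166). Parp10 rose by 1.64 (SE 0.33, adjusted p = 0.00996) but was not called without control 3 (adjusted p = 0.0617) or IFNγ 2 (0.0856), with the date term or on either TPM scale. Of 9 tested TRIM ubiquitin ligases 6 rose, led by Trim5 (3.25, SE 0.44, adjusted p = 0.000124) and Trim12c (2.40, SE 0.20, adjusted p = 2.07e-07), with a median of 1.66. Trim56 was the weakest of them (0.70, SE 0.17, adjusted p = 0.0462) and was lost in 5 of the 6 fits that left out a sample: without control 1 (adjusted p = 0.229), control 2 (0.152), control 3 (0.0628), IFNγ 1 (0.234) or IFNγ 2 (0.162). It was also lost without the low-count filter, in the delta cell samples alone, with the replicate block, with the date term and on both TPM scales.

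**Figure D3:**
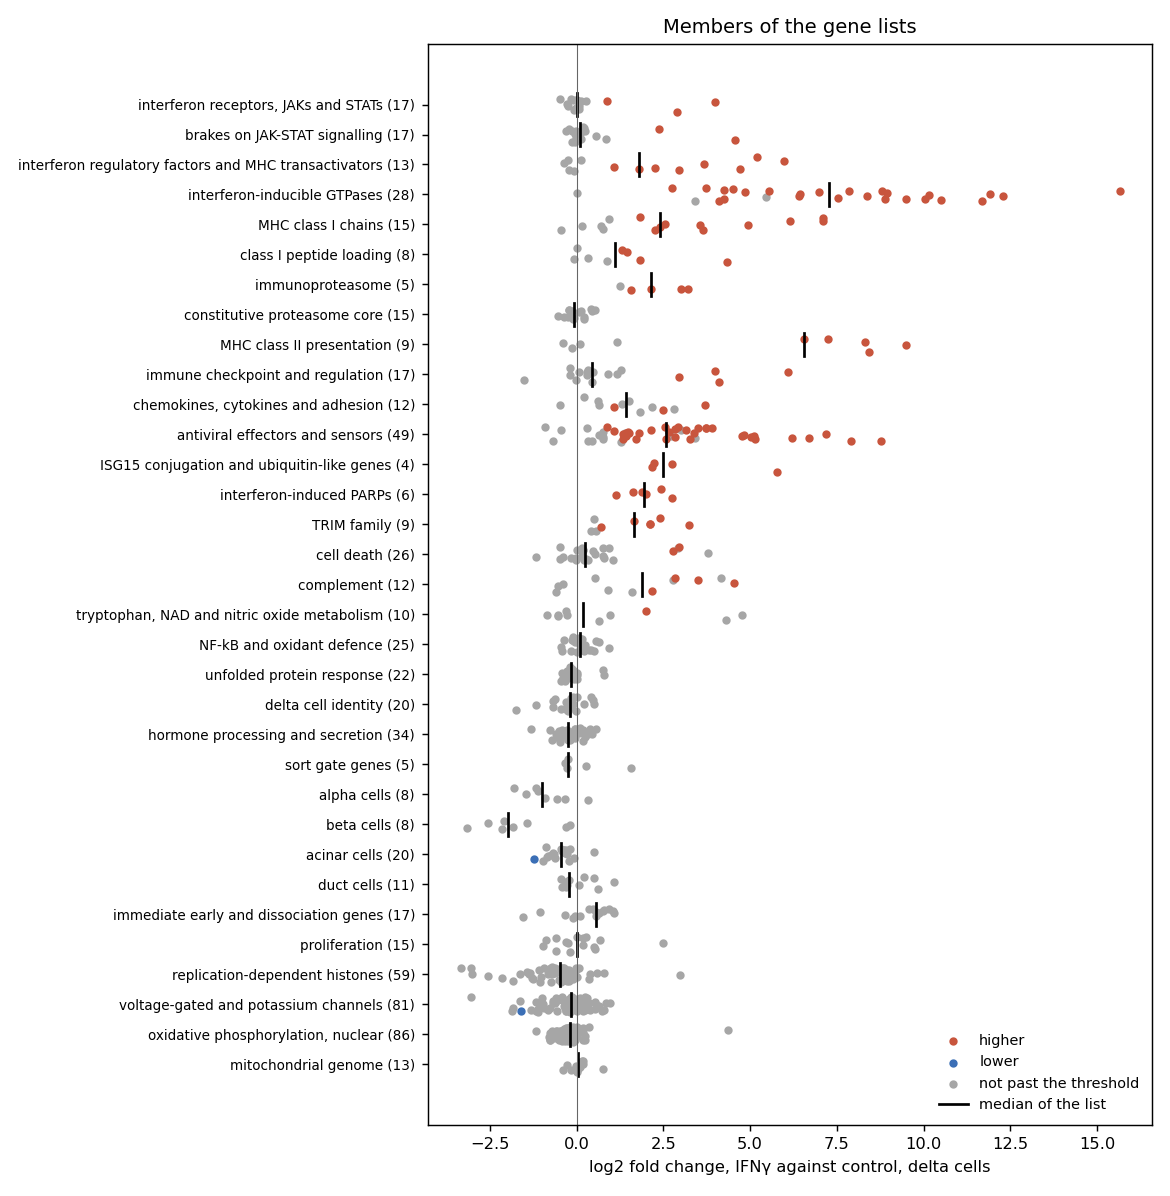
Log2 fold changes in delta cells for the tested members of each gene list (points, with the number tested in parentheses), red where a gene was higher, blue where it was lower and grey where it did not pass, with a black line at the list median. The interferon-inducible GTPases reach furthest to the right with a median of 7.26, while the delta cell identity, secretion and stress lists are grey throughout.

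Few genes of cell death passed. Mlkl, the executioner of necroptosis, was at 7.25, 6.16 and 7.68 CPM in the controls and 46.4, 45.5 and 72.8 CPM with IFNγ and rose by 2.96 (SE 0.29, adjusted p = 1.38e-06). Tnfsf10, which encodes the death ligand TRAIL, was at 30.1, 32.3 and 38.5 CPM in the controls and 194, 255 and 244 CPM with IFNγ and rose by 2.78 (SE 0.26, adjusted p = 7.05e-07). Both were the only ones of 26 tested members to pass, and the list median was 0.24. In 11 of the 26 every treated sample was above every control, an order that 7.71% of all tested genes had. In 1 the order was the opposite, where 7.8% of all tested genes had it. Casp8 (-0.03, SE 0.29, adjusted p = 0.986) and the pyroptosis effector Gsdmd (0.93, SE 0.39, adjusted p = 0.357) did not pass, Casp1 had no count in any delta cell sample, and Casp4 had 0 counts in the controls and 21 with IFNγ. The death receptor Fas had 3 counts in the controls and 26 with IFNγ and did not pass.

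Complement genes and 1 gene of NAD metabolism rose. Serping1, the inhibitor of the first complement component, was among the strongest transcripts of the response at 229, 139.9 and 154 CPM in the controls and 1095, 1339 and 1266 CPM with IFNγ (2.82, SE 0.27, adjusted p = 1.01e-06). The protease C1ra was at 4.77, 4.97 and 3.94 CPM in the controls and 51.8, 58.7 and 45.3 CPM with IFNγ (3.50, SE 0.47, adjusted p = 0.000124). C2 (2.17, SE 0.42, adjusted p = 0.00638) and C4b (4.52, SE 0.83, adjusted p = 0.00403) also rose, though C2 was lost without control 1 (adjusted p = 0.0589), with the date term and on log2(TPM + 0.1) (up to 0.417). C4b was lost with the date term and on both TPM scales (adjusted p up to 0.234). C4b is a near copy of C4a, so its reads may be divided with error. Complement factor Cfb did not pass (1.59, SE 0.78, adjusted p = 0.443), and 4 of 12 tested complement genes rose in all, with a median of 1.88. Nampt, the rate-limiting enzyme of NAD salvage, was at 49.8, 46.3 and 82.8 CPM in the controls and 228, 192 and 291 CPM with IFNγ and rose by 1.99 (SE 0.30, adjusted p = 0.000428). It was the only one of 10 tested genes of tryptophan, NAD and nitric oxide metabolism to pass. Nos2, the inducible nitric oxide synthase, had 0 counts in the controls and 9 with IFNγ in 2 of 3 samples.

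Lists of stress and of the delta cell's own work gave no call. None of 25 NF-kB and oxidant defence genes passed (median 0.10), none of 22 genes of the unfolded protein response (median -0.17), and none of 17 immediate early and dissociation genes (median 0.56), where Fos was at 112, 51 and 65 CPM in the controls and 149, 93.5 and 236 CPM with IFNγ. Ddit3, the stress factor CHOP, was at 15.6, 9.95 and 14.8 CPM in the controls and 22.7, 24.7 and 23.2 CPM with IFNγ, without overlap, and did not pass (0.81, SE 0.40, adjusted p = 0.446). Nuclear genes of oxidative phosphorylation (86 tested, median -0.19), genes of the mitochondrial genome (13 tested, median 0.03) and proliferation genes (15 tested, median 0.02) likewise held no call. The 59 tested replication-dependent histones had a median of -0.47 and no call. Of these, 52 of 59 were below 0, where 9440 of all 17338 tested genes were. In 12 every treated sample was below every control, an order that 7.8% of all tested genes had. No call came from the 5 tested genes of the sort gate (median -0.24) or from the 1 tested gene of cytosolic DNA sensing (1.65).

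None of 20 tested delta cell identity genes and none of 34 genes of hormone processing and secretion passed, with medians of -0.20 and -0.24. Sst had a log2 fold change of -1.15 (SE 0.91, adjusted p = 0.656), and by the values given above control sample 3 was at the level of the treated samples, while controls 1 and 2 were higher. Without the low-count filter the fit called Sst lower, at the same log2 fold change of -1.15 (adjusted p = 0.00257). That fit covered 32375 genes and gave Sst an SE of 0.27 in place of 0.91, from the same samples. The retinol carrier Rbp4 was at 667, 693 and 596 CPM in the controls and 317, 329 and 567 CPM with IFNγ, with no overlap, and did not pass (-0.69, SE 0.31, adjusted p = 0.398). Pdx1 (-0.27, SE 0.44, adjusted p = 0.854), Isl1 (-0.15, SE 0.20, adjusted p = 0.822) and the fatty acid receptor Ffar4 (-0.43, SE 0.39, adjusted p = 0.707) overlapped between groups. The granule protein Chga was at 1396, 1367 and 1233 CPM in the controls and 889.8, 1132 and 1365 CPM with IFNγ (-0.24, SE 0.27, adjusted p = 0.772). The subunits of the ATP-sensitive potassium channel, Abcc8 (-0.50, SE 0.30, adjusted p = 0.522) and Kcnj11 (-0.50, SE 0.25, adjusted p = 0.456), did not pass.

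Genes listed as markers of other islet and pancreatic cells varied between the samples. As background for the counts below, 9440 of all 17338 tested genes had a log2 fold change below 0. Of 8 tested beta cell markers all had log2 fold changes below 0, with a median of -1.96, and none passed. Insulin 2 (Ins2) was at 71.2, 45 and 196 CPM in the controls and 8.91, 10.3 and 33.4 CPM with IFNγ (-2.55, SE 0.78, adjusted p = 0.17), where beta cell samples held 17500 CPM or more, so the controls carried more of this RNA than any treated sample. Without the low-count filter Ins2 was called lower (-2.52, adjusted p = 5.59e-15), as were Ins1 (-2.06, 8.73e-11), Gcg (-1.76, 1.17e-06) and Ghrl (-2.28, 0.00447). The samples were the same and the fold changes nearly so, but the SE was smaller. For Ins2 it was 0.30 in place of 0.78, and for Gcg 0.30 in place of 1.10. These adjusted p therefore do not measure a closer agreement between samples. With the date term the log2 fold change of Gcg was -5.00. That contrast rests on 1 sample per group, control 3 (2260 CPM) and IFNγ 1 (43 CPM), so it adds no replicated result. Summed, the beta cell markers took 92.5 to 328 CPM in the controls and 29.2 to 78.6 CPM with IFNγ. Alpha cell markers took 259 to 2540 CPM against 137 to 854 CPM (7 of 8 below 0, median -1.01), and the 3 polypeptide and ghrelin cell genes 3490 to 8230 CPM against 2230 to 3790 CPM (3 of 3 below 0, median -1.16). Of these, Pyy was at 5000, 5740 and 2330 CPM in the controls and 1440, 2070 and 2330 CPM with IFNγ. Alpha cell samples held 718 to 2180 CPM of it. Whether Pyy and Ppy RNA came from delta cells or from other cells was not tested. Acinar genes took 1760 to 3740 CPM against 713 to 2860 CPM, with 19 of 20 below 0 and a median of -0.44, and duct genes 1360 to 1670 CPM against 1020 to 1460 CPM. Endothelial markers took 5.71 to 7.35 CPM against 6.88 to 12.7 CPM, and mesenchymal and Schwann cell markers 11.7 to 24.4 CPM against 18 to 23.2 CPM. Of all these markers Bhlha15 alone passed. The part of such RNA in the falls described next was not tested.

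The 32 genes that fell share no list. Ugt1a6a, a glucuronosyltransferase that conjugates small molecules for excretion (chromosome 1, 88134809 to 88218997 on GRCm38), was at 20.2, 24.4 and 23.1 CPM in the controls and 6.13, 4.97 and 7.21 CPM with IFNγ. The groups did not come near each other, and the log2 fold change was -1.88 (SE 0.29, adjusted p = 0.000544), although the gene shares exons with 8 others of the Ugt1a locus on its strand, which cannot be told apart here. Pappa2, a protease that frees insulin-like growth factors from their binding proteins, was at 54.6, 79.2 and 74.9 CPM in the controls and 12.3, 15.9 and 30.9 CPM with IFNγ (-1.81, SE 0.39, adjusted p = 0.0182). Papss2, which makes the sulfate donor of the cell, was at 20.1, 33.4 and 42.2 CPM in the controls and 9.74, 7.26 and 10.5 CPM with IFNγ (-1.79, SE 0.40, adjusted p = 0.0248). Kl, which encodes the FGF coreceptor klotho, was at 10.9, 12.7 and 19.3 CPM in the controls and 4.04, 5.99 and 6.06 CPM with IFNγ (-1.40, SE 0.29, adjusted p = 0.0121), and the inhibitory G protein subunit Gnai1 at 8.3, 10.2 and 25.6 CPM in the controls and 3.9, 3.69 and 7.7 CPM with IFNγ (-1.49, SE 0.36, adjusted p = 0.041).

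Bhlha15, a transcription factor of secretory cells also called MIST1 and listed here as an acinar gene, was at 19.8, 21.3 and 14 CPM in the controls and 6.82, 8.03 and 8.6 CPM with IFNγ (-1.23, SE 0.21, adjusted p = 0.00214), where other acinar genes such as Cpa1 (-0.63, SE 1.18, adjusted p = 0.873) and Ctrb1 (-0.26, SE 1.24, adjusted p = 0.959) did not pass. Other falls named by the rule were Ky (-2.0, SE 0.44, adjusted p = 0.0191), Fam167a (-1.48, SE 0.32, adjusted p = 0.0182), Lonrf2 (-1.44, SE 0.26, adjusted p = 0.00348), Gpr45 (-1.34, SE 0.28, adjusted p = 0.0143) and Gm21988 (-2.01, SE 0.49, adjusted p = 0.0498), the last sharing exons with 0610010K14Rik and Rnasek. Most falls were of lowly expressed genes, with a median of 14.5 CPM in the controls and a highest mean of 173 CPM, that of Fkbp9.

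The falls were less stable than the rises. Without IFNγ sample 1 the fit called 16 genes lower, without control sample 2 it called 19, and without IFNγ sample 3 it called 80, against 32 in the fit of all samples. Of the 32, 4 passed in each of the 6 fits that left out a sample, namely Ugt1a6a, Lonrf2, Bhlha15 and Ntrk2. Pappa2 was lost without control 2, control 3, IFNγ 1 or IFNγ 2, with adjusted p of 0.0539 to 0.136, Papss2 without any sample other than control 1 (adjusted p 0.0574 to 0.131), and Kl without control 3 or IFNγ 1 (adjusted p 0.079 to 0.0942). Gnai1 was lost without control 3, IFNγ 1 or IFNγ 2 (adjusted p 0.188 to 0.217). Ky was lost without control 1, control 3, IFNγ 1 or IFNγ 3 (adjusted p 0.0645 to 0.0846), and Fam167a without control 1, IFNγ 1 or IFNγ 2 (adjusted p 0.0569 to 0.12). Gpr45 was lost without control 2, control 3, IFNγ 1 or IFNγ 2 (adjusted p 0.0505 to 0.0996), and Gm21988 without control 1, control 2, IFNγ 2 or IFNγ 3 (adjusted p 0.142 to 0.235). With the 6 delta cell samples fitted alone 6 genes were lower, 3 of them among the 32, while 215 were higher. All 32 kept a log2 fold change below 0 in each fit without a sample. None of the falls named here passed under every alternative, and Bhlha15 and Lonrf2 were both lost in the delta cell samples alone, with the date term and on log2(TPM + 1). Ugt1a6a was lost only with the date term. Pappa2, Kl, Ky, Gpr45 and Fam167a were also lost with the date term and on both TPM scales. Under limma-voom Papss2, Kl, Ky, Gpr45, Gnai1 and Lonrf2 were lost. Kl, Ky, Gpr45, Gnai1, Fam167a and Gm21988 were lost in the delta cell samples alone as well.

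**Figure D4:**
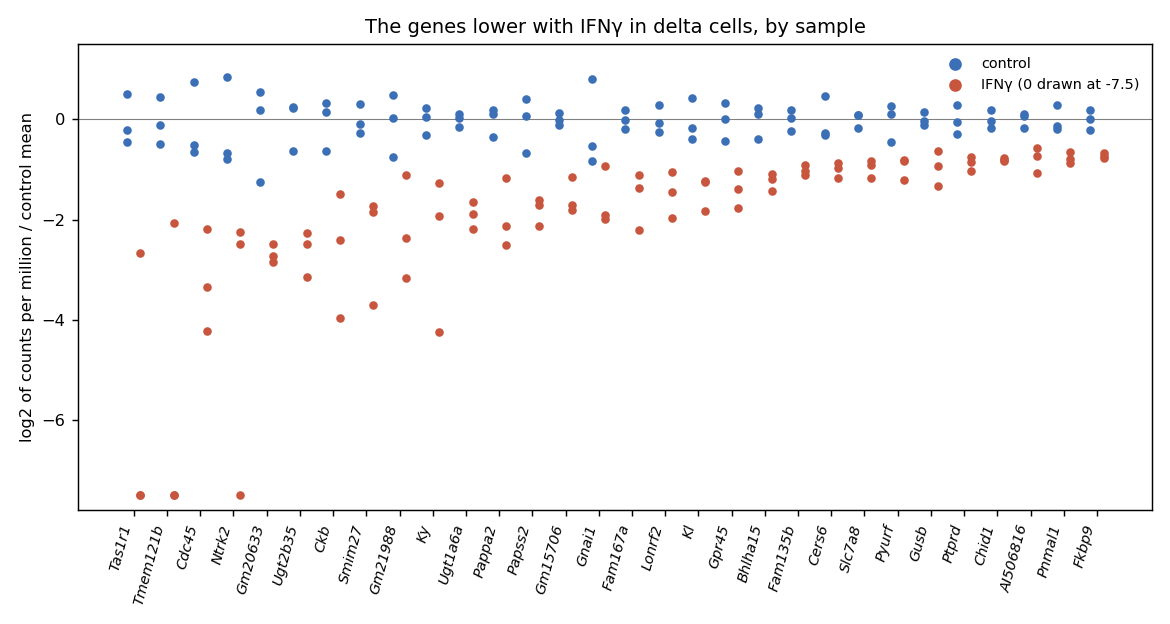
Log2 of CPM over the mean of the controls for 30 of the 32 genes that were lower with IFNγ in delta cells, with the 3 control samples in blue and the 3 IFNγ samples in red, ordered by log2 fold change, and values of 0 drawn at -7.5. Every red point lies under every blue point of its gene, and from the left to the right the gap narrows from over 4-fold to under 2-fold.

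Set beside the other endocrine cells, the response of delta cells was not shown to differ. Of the 209 genes higher in delta cells, 158 (75.6%) were also called higher in beta cells, which is 86.3% of the 183 genes higher there, and 135 (64.6%) were called in alpha cells, which is 82.8% of the 163 higher there. Another 41 were called in neither. Their median log2 fold change was 2.78 in delta, 2.62 in beta and 2.10 in alpha cells, and since they were picked on the delta cell values the order of these medians is no result. By edgeR, no gene passed in the test of the difference between the delta and beta cell responses or between the delta and alpha cell responses. An unadjusted p under 0.05 was found for 821 and 784 of the 17338 tested genes. Both are fewer than the share of 0.05 to be awaited if no gene differed. DESeq2 called 4 and 6 genes, and limma-voom 0 and 1.

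The nearest to a difference from beta cells was Csf1, with a log2 fold change of 2.49 in delta and 0.56 in beta cells, a difference of 1.93 (SE 0.36, adjusted p = 0.681). From alpha cells it was Rtp4, a chaperone of membrane receptors on the antiviral list that was picked out after its values were seen, with 2.84 in delta and 4.90 in alpha cells, a difference of -2.06 (SE 0.35, adjusted p = 0.203). For a pair of the genes described above the values stood as follows. Cd274 had log2 fold changes of 3.98, 4.08 and 3.43 in delta, beta and alpha cells, and B2m of 6.14, 4.87 and 6.03, and no difference between cell types passed for them. Of the 32 genes lower in delta cells none was called lower in beta or alpha cells. In all, only 1 tested gene was called lower in beta and 6 in alpha cells. The lack of shared calls therefore does not set the falls of delta cells apart. Their median was -1.48 in delta cells, -0.27 in beta cells (28 of 32 below 0) and -0.55 in alpha cells (27 of 32 below 0), and no difference passed. The share of all tested genes below 0 in beta and alpha cells was not counted.

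**Figure D5:**
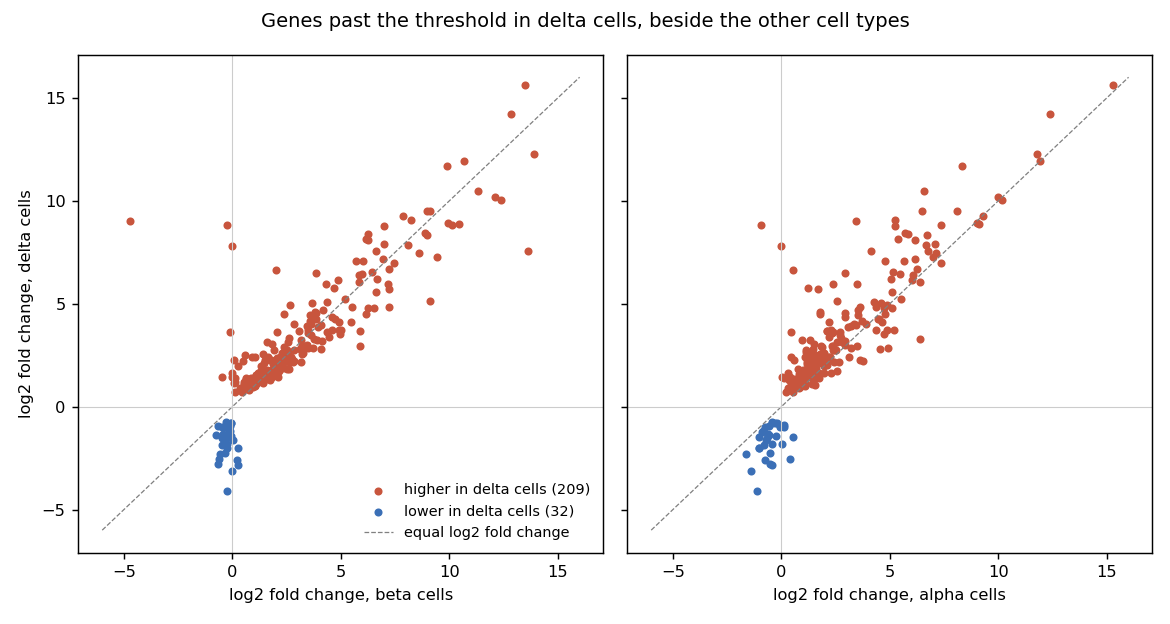
Log2 fold changes of the 209 genes higher (red) and the 32 genes lower (blue) in delta cells on the vertical axis, against the log2 fold change of the same genes in beta cells (left) and alpha cells (right), with a dashed line where both are equal. Red points lie above 0 on the horizontal axis for 202 of the 209 genes in beta and 207 in alpha cells, with medians of 2.78 in delta, 2.62 in beta and 2.10 in alpha cells. Some lie far from the dashed line, such as Gm8226 at 8.84 in delta, -0.27 in beta and -0.96 in alpha cells, without a difference that passed. Blue points gather near 0 on the horizontal axis.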

How the data were processed

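RNA from sorted delta cells (3 control and 3 IFNγ samples) and from alpha and beta cells was sequenced as stranded, random-primed, rRNA-depleted libraries. Per the submitters' processing notes, the authors used STAR 2.5.2b and the GRCm38 genome, and RSEM (no version given) quantified each library on its own. The deposited files hold expected counts per gene, of which 89.6% to 92.7% were whole, and the deposited TPM values, scaled by the authors for effective length and to a common total per library. No source used here states whether the counting used strand or removed duplicates.

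Expected counts were rounded and fitted in edgeR 4.0.16 (R 4.3.3) with all 18 samples and 1 mean per group, after filterByExpr with a minimum count of 10 and TMM scaling. The quasi-likelihood test was adjusted by Benjamini-Hochberg over 17338 genes at a threshold of 0.05. Each SE given with it was computed back from the log2 fold change and the test statistic. It therefore restates the unadjusted p of the test and does not explain it. The study's methods name a batch term, but the labels give no batch, so the date in the file names entered only as an alternative. Other alternatives were DESeq2 1.42.0, limma 3.58.1 on counts or TPM, other scalings and filters, a GC correction, a replicate block and leaving out samples. CPM are rounded counts over scaled library sizes. Gene positions came from GENCODE M21 (99.38% of 55487 genes matched), and the study names a later release. The study's methods describe each n as an independent biological sample, while the labels do not tie samples to animals. Bounds with 3 counts as the floor and 95% intervals (Clopper-Pearson) cover counting error only.

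The members and lists were chosen with earlier results of these data known. Named genes were the fixed members of 38 lists, the 12 largest rises and falls with a mean of at least 5 CPM in one group and no overlap, and up to 6 called members per list. Results of 3 genes are not reported here.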

Additional observations from a re-analysis of the deposited data

How the results depend on the processing

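All 209 rises kept their sign under each of 18 alternatives, and 49 of the 93 named rises and none of the 13 named falls passed under all of them. A test without the low-count filter called 415 genes higher and 177 lower. With date as a term the counts were 83 and 26. None of the 6 delta cell dates holds both treatments, so this contrast rests on the 2 samples that share a date with other cell types. It kept 77 of the 209 rises and 2 of the 32 falls, and 25 named rises were lost only there. The falls moved most. DESeq2 called 97 genes lower beside 298 higher, delta cell samples fitted alone 6, the GC correction 77, the GC correction with replicate block 88, and the fit without control 3 and IFNγ 3, which was added after seeing the data, 62. Leaving out 1 sample gave 16 to 80 lower genes. Gm21988 turned to 0.10 with date (adjusted p = 0.991). The TPM scales moved the median of all genes to -0.10 and -0.18 and called 156 and 148 genes higher. The cause of these shifts was not tested. Some named genes that did not pass were called under other settings. Without the low-count filter these were Socs3, Psme2, Serpinb9, Icam1, Ifitm3, Fas, Cfb and Fos, all higher, and the hormone genes Sst, Gcg, Ins1, Ins2 and Ghrl, all lower. Their log2 fold changes were nearly those of the main fit, with smaller SE. DESeq2 called Psme2, Serpinb9 and Ifitm3, and the GC correction called Psme2 and Ifitm3.

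Deviation correlations between same-numbered control and IFNγ delta cell samples were -0.0481, 0.202 and 0.279, in order of sample number. The mean over 45 same-numbered pairs of the whole series was 0.0216, and that over 18 pairs of the same date was 0.177. Whether samples of the same number belong together was not tested. The fit with the replicate block called 203 genes higher and 38 lower.

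For the difference between delta and beta cells, where edgeR called none, DESeq2 called 4 genes, the date term 9, no filter 152, log2(TPM + 1) 1 and log2(TPM + 0.1) 2. Between delta and alpha cells the counts were 6, 19, 105, 1 and 3, with 1 each under limma-voom and the GC correction.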

Other observations

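Of the 209 genes higher in delta cells, 84 belonged to none of the lists, and the genes named here were chosen after their values were seen. Whether their calls held in the fits without 1 sample or under the other alternatives is not given. Rnf213, a large ubiquitin ligase linked to defence against intracellular bacteria, was at 159, 159 and 141 CPM in the controls and 618, 1229 and 652 CPM with IFNγ (log2 fold change by edgeR 2.44, SE 0.27, adjusted p = 7.34e-06). Ly6e, a membrane-anchored protein that affects viral entry, was at 95.9, 111 and 54.1 CPM in the controls and 494, 500.1 and 337 CPM with IFNγ (2.35, SE 0.28, adjusted p = 2.68e-05). Mpeg1, which encodes the pore-forming protein perforin-2, was at 0.954, 1.51 and 0.519 CPM in the controls and 21.7, 34.8 and 28.1 CPM with IFNγ (4.81, SE 0.44, adjusted p = 7.05e-07), and Pigr, the receptor that carries polymeric antibodies across epithelia, at 2.86, 3.14 and 4.15 CPM in the controls and 24.4, 42.4 and 36.2 CPM with IFNγ (3.34, SE 0.30, adjusted p = 5.95e-07). Ly75, an uptake receptor known from dendritic cells, rose by 2.32 (SE 0.24, adjusted p = 2.82e-06), and Tlr3, the receptor for double-stranded RNA in endosomes, by 1.28 (SE 0.26, adjusted p = 0.00996). Rapgef5, an exchange factor for small G proteins, went from 2.29, 1.41 and 4.15 CPM to 43.6, 47.5 and 36.1 CPM (4.01, SE 0.45, adjusted p = 1.01e-05).

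Other members of this remainder have roles outside immunity. Snx10, a sorting nexin of endosomes, was at 61.5, 67.4 and 93.6 CPM in the controls and 208, 207 and 226 CPM with IFNγ (1.53, SE 0.21, adjusted p = 0.000137). Tcf7l2, the Wnt pathway transcription factor whose human counterpart lies at a type 2 diabetes locus, was at 18.3, 14.3 and 14.9 CPM in the controls and 39.1, 53.6 and 26.6 CPM with IFNγ (1.32, SE 0.25, adjusted p = 0.00464). Its log2 fold change was 0.62 in beta and 0.58 in alpha cells, where it did not pass, and the difference from neither passed. Adamts1, a secreted metalloprotease, was at 8.21, 7.79 and 11 CPM in the controls and 35.9, 26 and 23.1 CPM with IFNγ (1.65, SE 0.34, adjusted p = 0.0128), with -0.01 in beta and 0.32 in alpha cells and no difference that passed. Gm17334, which overlaps Irf1 on the opposite strand, rose by 3.63 (SE 0.30, adjusted p = 1.26e-07), and reads of the pair may be mixed.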
